A study of Mus musculus with 9 samples.

Results

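Integrins are the cell surface receptors that hold cells to the matrix and to each other, and laminins are the chains that build the sheet of matrix, the basement membrane, on which epithelium, muscle and vessels rest. The genes described here were all protein-coding genes of the deposited table whose symbol names an integrin alpha subunit, an integrin beta subunit or a laminin alpha, beta or gamma chain. They were 37 of the 38087 genes of the table, with 26 integrin subunits and 11 laminin chains. Every member was found at its tabulated place in the GENCODE annotation of the same mouse build, GRCm38/mm10.

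RNA came from the middle colon of male C57BL/6 mice, 10 to 12 weeks old, with colitis caused by dextran sulfate sodium (DSS), which injures the colonic epithelium when drunk with water. On the day before the colon was taken, the mice had received by vein human adipose tissue-derived mesenchymal stem cells (AD-MSC), human umbilical cord tissue-derived mesenchymal stem cells (UC-MSC) or, as control, saline (PBS) without cells. There were 3 libraries in each of the 3 groups, DSS was given in all 3, and colons without DSS were not analysed here. The comparisons ask how the colon differed after each kind of cell and between the kinds.

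An integrin is a pair of 1 alpha and 1 beta subunit, and the beta subunit sets which alpha subunits it can join. Beta-2 and beta-7 integrins are carried by leukocytes and serve their adhesion to vessel walls and entry into tissue. Alpha-6 with beta-4 anchors epithelial cells to laminin in hemidesmosomes, and most beta-1 integrins bind matrix proteins such as laminin, collagen and fibronectin. A laminin is a trimer of 1 alpha, 1 beta and 1 gamma chain, named by the numbers of its chains, and laminin-332 is the form on which squamous and wounded epithelium sits.

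The table held 1 mean per gene and group, made by the authors, so that no spread between mice, no test and no p-value could be had. The differences therefore have no replicate check. Levels are given as normalized reads, which are 2 raised to the authors' mean log2 value over the 3 libraries. A difference is the log2 mean of a group minus that of another. The smallest counting error is the least standard error, on the log2 scale, that the number of reads allows. It leaves out the variation between mice and ran from 0.02 for *Itgb1* to 0.39 for *Itga10* in UC-MSC against control. UC-MSC was the shallowest group, with raw means that summed to 5.03e+06 reads over genes, against 7.30e+06 for control and 8.22e+06 for AD-MSC. A gene was compared where its normalized reads averaged 10 or more in the pair of groups. This left 35 members for AD-MSC against control, 36 for UC-MSC against control and 35 for UC-MSC against AD-MSC. *Itgad* stayed out of each comparison and *Itga10* out of both that used AD-MSC. Apart from *Itgad*, each member had reads in every library. In bulk colon RNA, fewer cells of a type and less RNA per cell cannot be told apart.

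Per kilobase of exon, the control colons held most RNA for *Itgb1*, the shared beta subunit of most matrix-binding integrins, at 814 normalized reads per kb. The laminin-binding subunit genes *Itgb4*, *Itga6* and *Itga3* came next at 356, 257 and 212 per kb, followed by the fibronectin receptor subunit *Itga5* at 164 and the laminin-332 chain *Lamb3* at 163. The epithelial anchoring genes thus stood near the top of the family in these colons. Leukocyte subunits lay far lower, with *Itgb2* at 35.7 per kb, *Itgam* at 22.1 and *Itgb7* at 7.36. The lowest levels were those of *Itgad* at 0.38, *Itgb8* at 1.51, *Itga10* at 1.74, *Lamc3* at 2.09 and *Itga2b* at 2.30 per kb. With no values of single libraries, it cannot be said which neighbours in this order differ beyond the spread between mice. Colon epithelium markers were abundant, with *Epcam* at 10305 and *Cdh1* at 13505 normalized reads in control, and none of the 10 was at the floor of the table.

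**Figure D1:**
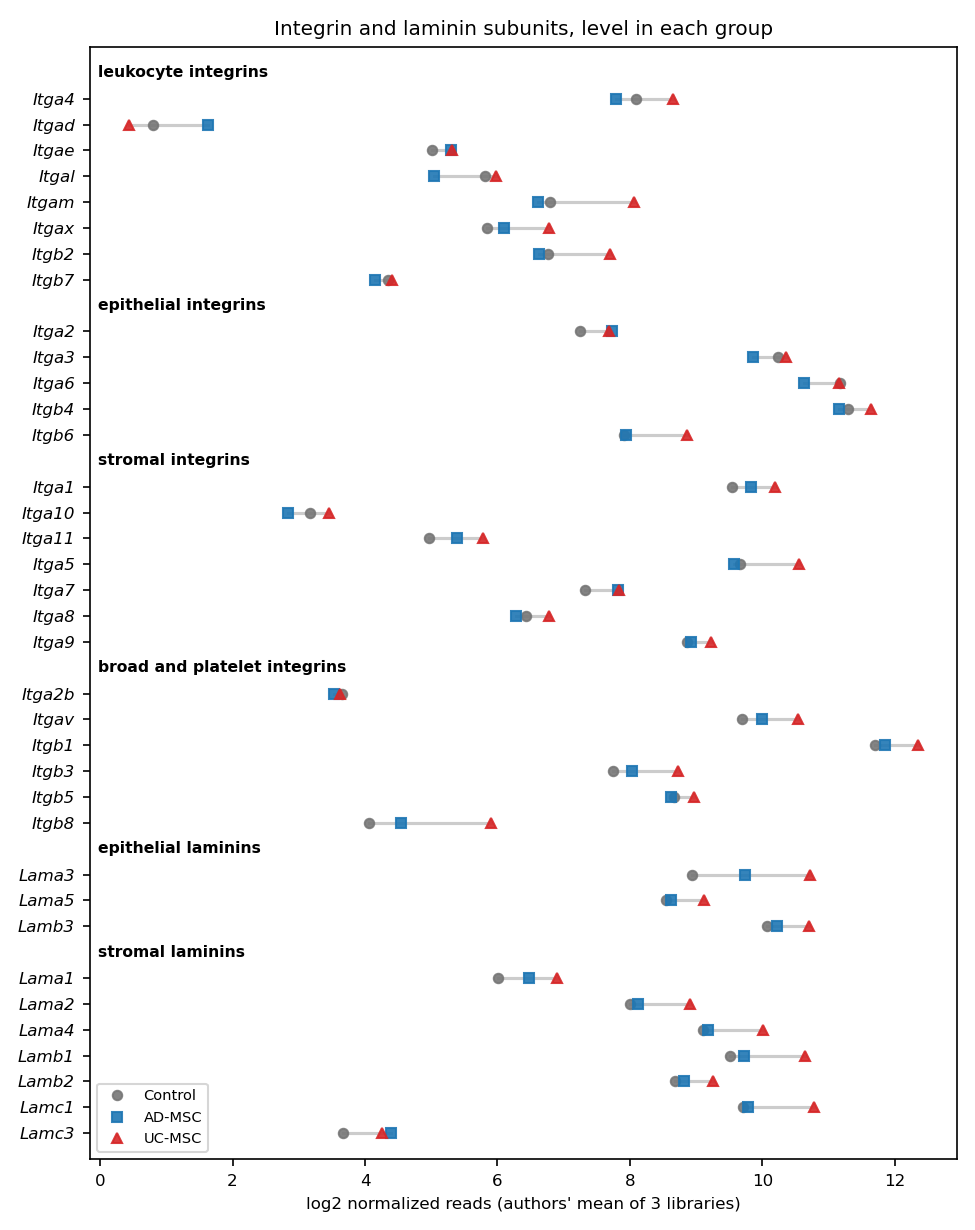
Each point is the log2 normalized reads of a gene in control (circle), AD-MSC (square) or UC-MSC (triangle), the authors' mean of 3 libraries, with genes ordered by the class of cell that chiefly carries them and 36 of the 37 members drawn. The UC-MSC point is the right-most for most genes, and *Lama3* runs from 8.94 in control over 9.73 in AD-MSC to 10.73 in UC-MSC.

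UC-MSC colons had higher values than control colons for nearly all members. Of 36 members compared, 34 were higher, beside 48.3% of all 15026 genes, and 2 lower. Their median log2 difference was 0.63, beside -0.02 over all genes. By at least 1.5-fold, 19 members were higher and 0 lower, where 14.4% of all genes were that much higher and 9.88% that much lower. By at least 2-fold, 5 members were higher, *Itgb8*, *Lama3*, *Itgam*, *Lamb1* and *Lamc1*, beside 5.09% of all genes, and 0 were lower, beside 2.66%. The 2 lower members, *Itga6* and *Itga2b*, had differences of -0.03 and -0.02, each within its counting interval. With each group scaled to the same sum of normalized reads, the median of all genes shifted to -0.15 and that of the members to 0.50. Then 32 of 36 members were higher, beside 37.3% of all genes, with *Itga3* and *Itgb7* turning lower. Past 1.5-fold lay 16, without *Itga1*, *Itgb1* and *Lamb3*, beside 10.6% of all genes. Of all genes past 1.5-fold in this comparison, 59.4% were higher, and 41.0% after that scaling.

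AD-MSC colons did not depart from control in the same manner. Of 35 members compared, 22 were higher, beside 48.9% of all 14960 genes, and 13 lower. Their median was 0.08, beside -0.01 over all genes. Past 1.5-fold, 2 members, *Lama3* and *Lamc3*, were higher beside 6.57% of all genes, and 1 member, *Itgal*, was lower beside 6.62%. These shares are near those of all genes and are no result about the family as a whole. No member reached 2-fold, which 1.69% of all genes did upwards and 2.01% downwards.

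Set against each other, the MSC groups differed mostly in 1 direction. Of 35 members, 33 were higher in UC-MSC, beside 48.8% of all genes, with a median of 0.50. By at least 1.5-fold, 15 members were higher beside 12.3% of all 15074 genes, and 0 were lower beside 7.5%. By at least 2-fold, 5 members were higher, *Itgam*, *Itgb8*, *Itgb2* and *Lamc1* among them, beside 4.5% of all genes, and 0 members were that much lower, beside 2.3%. *Itga2* and *Lamc3* were the lower members, with differences of -0.05 and -0.14. Of all genes past 1.5-fold, 62.1% were higher in UC-MSC, and 48.6% after scaling to the same sum. With that scaling, 30 of 35 members were higher, beside 38.8% of all genes compared. The comparisons share groups, since both MSC groups were set against the same control mean, and their agreement is therefore not a result.

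**Figure D2:**
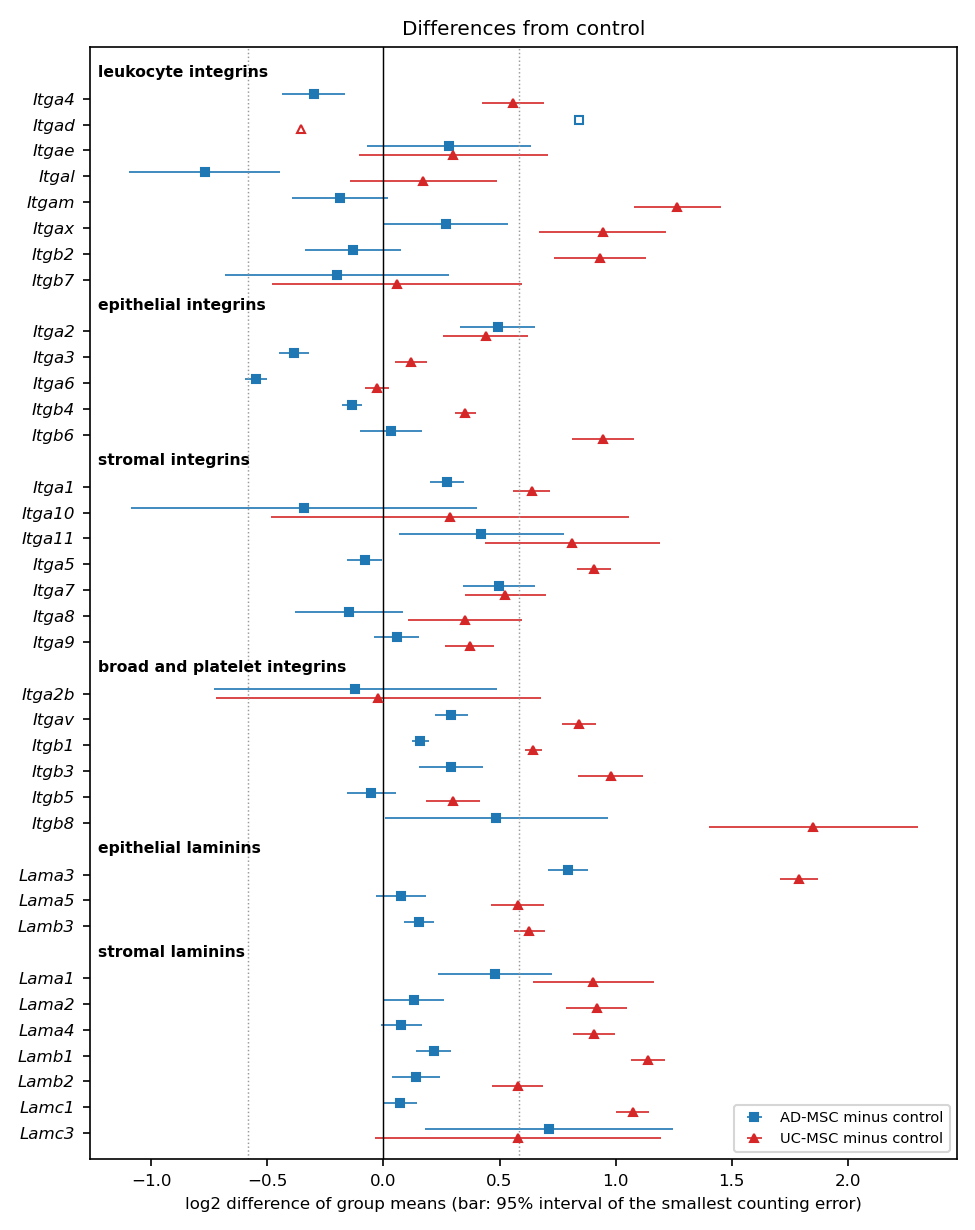
Each point is the log2 difference of a gene from control, for AD-MSC (square) and UC-MSC (triangle). Bars are 95% intervals of the smallest counting error and leave out the variation between mice, open points have no such error, and dotted lines mark 1.5-fold. Most UC-MSC points lie to the right of 0, up to 1.85 for *Itgb8* and 1.79 for *Lama3*, while AD-MSC points lie between -0.77 for *Itgal* and 0.84 for *Itgad*.

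Among laminin chains, all 11 were higher in UC-MSC than in control, beside 48.3% of all genes. Their median was 0.91, with a range of 0.58 to 1.79. Past 1.5-fold lay 8 of them, beside 14.4% of all genes. The other 3, *Lama5*, *Lamb2* and *Lamc3*, were each 1.49-fold higher, just inside that line. In AD-MSC, 10 of 11 were higher, beside 48.9% of all genes, but with a median of 0.14. The laminin chains are secreted, and the cells that make them differ between chains, so the epithelial and stromal chains are given apart.

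The epithelial laminin chains showed the greatest laminin difference of the table. *Lama3* (ENSMUSG00000024421, on the plus strand of chromosome 18 from 12334024 to 12583013) encodes the alpha chain of laminin-332, through which epithelial cells hold to their basement membrane. It had 489.8 normalized reads in control, 849.8 with AD-MSC and 1694 with UC-MSC. AD-MSC was 1.73-fold and UC-MSC 3.46-fold higher than control, with log2 differences of 0.79 and 1.79 and a smallest counting error of 0.04 for each. Among all genes of the UC-MSC comparison the difference of *Lama3* held rank 106 from the top. A small rRNA gene within its bounds, on the other strand, had 1.14 normalized reads or fewer in every group.

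*Lamb3*, which encodes a beta chain that joins the product of *Lama3* in laminin-332, did not share the size of its difference. It had 1077 normalized reads in control, 1198 with AD-MSC and 1666 with UC-MSC, a 1.55-fold difference between UC-MSC and control. The log2 differences of *Lama3* and *Lamb3* from control were thus 1.16 apart in UC-MSC. In AD-MSC *Lamb3* differed from control by 0.15. *Lama5*, the alpha chain of the main laminins of the adult gut epithelium, had 372 normalized reads in control, 392 with AD-MSC and 556 with UC-MSC, and its AD-MSC value differed from control by 0.07.

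Shares within a chain family do not depend on how the groups were scaled. Of the normalized reads per kb of the 5 laminin alpha chains, *Lama3* had 31.2% in control, 42.1% with AD-MSC and 47.2% with UC-MSC. *Lama5* had 22.4%, 18.3% and 14.6% in the same order, and *Lama4* 31.2%, 25.6% and 25.6%. The alpha chain of laminin-332 was therefore the leading one in both MSC groups, while in control it stood level with *Lama4*.

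**Figure D3:**
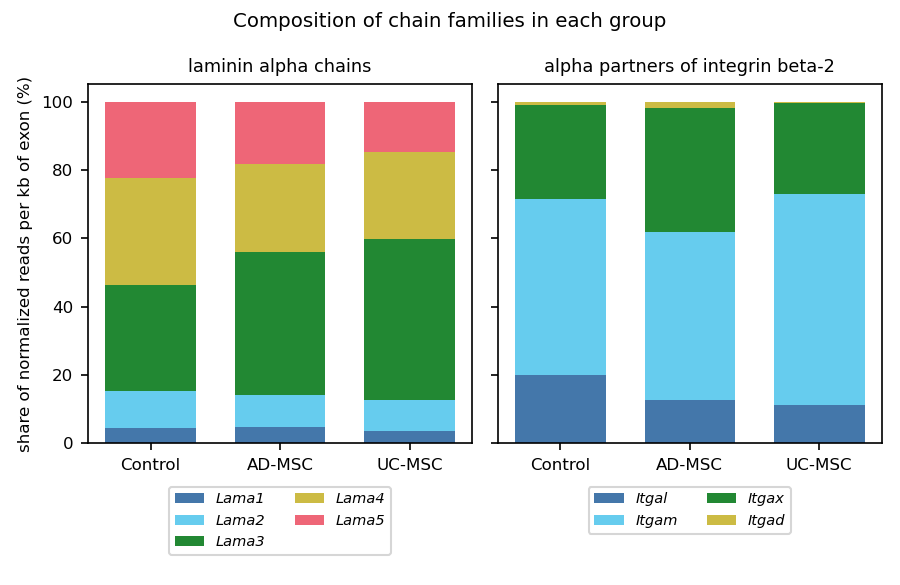
Stacked bars give each gene's share of the normalized reads per kb of exon of its chain family in each group, for laminin alpha chains and the alpha subunits that pair with integrin beta-2. The *Lama3* segment grows from 31.2% in control to 47.2% in UC-MSC, and the *Itgam* segment from 51.5% to 61.8%. Bars have no error, because each group has 1 mean.

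The stromal laminin chains, made chiefly by fibroblasts, muscle and endothelium, were higher in UC-MSC by 0.58 to 1.14 on the log2 scale. Past 1.5-fold lay 5 of 7, beside 14.4% of all genes. *Lamb1*, a beta chain found in most stromal and vascular laminins, had 727 normalized reads in control, 845 with AD-MSC and 1602 with UC-MSC, 2.20-fold higher in UC-MSC than in control. *Lamc1*, the gamma chain of most stromal and vascular laminins, had 839, 882 and 1766, and UC-MSC was 2.10-fold higher. Control and AD-MSC lay close together for both genes, with UC-MSC apart from them.

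The alpha chains of the stroma followed the same order of groups. *Lama4*, of vessel walls, had 550.2 normalized reads in control, 580.6 with AD-MSC and 1032 with UC-MSC, and *Lama2*, the alpha chain of muscle basement membrane, had 256, 280.0 and 483. *Lama1*, the alpha chain of embryonic laminin, had 64.1, 89.4 and 119.9. Their log2 differences from control in UC-MSC were 0.91, 0.92 and 0.90, and in AD-MSC 0.08, 0.13 and 0.48. For the trimers of *Lamb1* and *Lamc1* with *Lama1*, *Lama2* or *Lama4*, the chains differed from control in UC-MSC by amounts no more than 0.24 apart. With *Lama5* in their place the amounts were 0.56 apart. For the trimers of *Lamb2* and *Lamc1* with *Lama2*, *Lama4* or *Lama5* they were 0.50 apart. *Lamb2*, the beta chain of synaptic and vascular laminins, had 410.1, 452 and 612 normalized reads. *Lamc3* had 12.8 normalized reads in control, 20.9 with AD-MSC and 19.0 with UC-MSC. Its AD-MSC difference of 0.71 had a smallest counting error of 0.27, and it went below 1.5-fold with a pseudocount of 10.

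Stromal and vascular markers were also higher in UC-MSC. All 7 fibroblast markers were at least 1.5-fold higher, beside 14.4% of all genes. Their summed normalized reads were 8296 in control, 9527 with AD-MSC and 17845 with UC-MSC. All 6 endothelial markers were at least 1.5-fold higher, with sums of 961, 1246 and 1752. Of the 6 smooth muscle markers 4 were, with sums of 64319, 74137 and 100958. The same 14.4% of all genes stands beside both counts. None of these markers was at the floor of the table. Mesothelium and fat markers were lower in both MSC groups, 6 of 6 in each, with sums of 459, 254 and 202. By at least 1.5-fold, 5 of 6 were lower in AD-MSC, beside 6.62% of all genes. In UC-MSC 6 of 6 were, beside 9.88%. The part of these cell types in the differences of the stromal chains was not tested. Of the 10 colon epithelium markers 2 were at least 1.5-fold higher in UC-MSC, *Krt20* and *Car1*, which is near the 14.4% of all genes. The median of the 10 was 0.10, with sums of 94963 in control, 103150 with AD-MSC and 102615 with UC-MSC. Squamous epithelium markers, which line the anal canal and not the colon, summed to 35.9 normalized reads in control, 23.7 with AD-MSC and 139.9 with UC-MSC, with *Krt14* at 63.8 in UC-MSC and *Krt6a* at the floor in control, and their part in the laminin-332 chains was not tested.

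Epithelial integrin subunits differed less than the laminin chains. Their median in UC-MSC was 0.35, and 0.22 with groups scaled to the same sum. Past 1.5-fold lay 1 of 5, which is near the 14.4% of all genes. *Itgb6*, which pairs with *Itgav* and activates latent TGF-beta on epithelium, had 240.2 normalized reads in control, 245.7 with AD-MSC and 463 with UC-MSC. UC-MSC was 1.93-fold higher than control, with a smallest counting error of 0.07 on the log2 scale, and control and AD-MSC differed by 0.03.

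The hemidesmosome pair and its relatives did not follow *Lama3*, their ligand gene. *Itga6* (chromosome 2, 71745616 to 71858416) had 2318 normalized reads in control, 1585 with AD-MSC and 2277 with UC-MSC, so that AD-MSC was 1.46-fold lower and UC-MSC level with control. *Itgb4*, its partner in hemidesmosomes, had 2500 in control, 2273 with AD-MSC and 3191 with UC-MSC. *Itga3*, another laminin-332 receptor subunit, had 1210 in control, 928 with AD-MSC and 1313 with UC-MSC. For all 3 genes AD-MSC was the lowest group, with differences from control of -0.55, -0.14 and -0.38. *Itga2*, a collagen receptor subunit, had 151 in control, 212 with AD-MSC and 205 with UC-MSC, and both MSC groups stood above control by 0.49 and 0.44. Among integrin alpha subunits, per kb, the share of *Itga6* was 27.2% in control, 20.8% with AD-MSC and 19.7% with UC-MSC, while that of *Itga5* was 17.3%, 18.4% and 24.0%.

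Among leukocyte subunits the myeloid ones had the larger differences. In UC-MSC all 7 compared were higher than control, beside 48.3% of all genes. By at least 1.5-fold 3 were higher, beside 14.4% of all genes, and the median of the 7 was 0.56. That median was 0.93 with a minimum mean of 50, and *Itgb7* turned lower, at -0.076, with groups scaled to the same sum. *Itgam* (ENSMUSG00000030786), the alpha-M subunit of complement receptor 3 on neutrophils and macrophages, had 110.9 normalized reads in control, 97.4 with AD-MSC and 267 with UC-MSC. UC-MSC was 2.40-fold higher than control and 2.74-fold higher than AD-MSC, with smallest counting errors of 0.10 for both. *Itgb2*, the common beta subunit, had 108.8, 99.4 and 208, and UC-MSC was 1.91-fold higher than control. *Itgax*, the alpha-X subunit of dendritic cells and macrophages, had 57.1, 68.7 and 109.8, and UC-MSC was 1.92-fold higher. For the beta subunit and both myeloid alpha subunits, UC-MSC was thus the highest group, and AD-MSC was within 0.27 of control.

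The lymphocyte subunits differed less between UC-MSC and control. *Itgal*, the alpha-L subunit of LFA-1 that lymphocytes and other leukocytes carry, had 56.1 normalized reads in control, 32.9 with AD-MSC and 63.3 with UC-MSC. AD-MSC was 1.70-fold lower than control, with a smallest counting error of 0.17, and UC-MSC differed from control by 0.17. *Itga4*, which with beta-7 homes lymphocytes to the gut and with beta-1 binds VCAM-1, had 272 in control, 221.01 with AD-MSC and 400.3 with UC-MSC. Its difference of 0.56 between UC-MSC and control was just short of 1.5-fold, and UC-MSC was 1.81-fold higher than AD-MSC. *Itgb7*, its gut-homing partner, had 20.4, 17.8 and 21.2 normalized reads, and *Itgae*, which holds T cells to E-cadherin of the epithelium, had 32.4, 39.4 and 39.9. The 95% counting intervals of *Itgb7* and *Itgae* included 0 in both MSC groups, so no difference of these mucosal lymphocyte subunits was detectable at this depth. *Itgad*, the alpha-D subunit, had 1.73 normalized reads in control, 3.10 with AD-MSC and 1.35 with UC-MSC, too few for a comparison.

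Among the 4 alpha partners of beta-2, per kb, *Itgam* had 51.5% in control, 49.2% with AD-MSC and 61.8% with UC-MSC. *Itgal* had 19.9%, 12.7% and 11.2%, and *Itgax* 27.7%, 36.3% and 26.6%. The alpha-L share was thus lower in both MSC groups than in control, although the *Itgal* level in UC-MSC was not. Of 9 macrophage and monocyte markers in the table, 7 were at least 1.5-fold higher in UC-MSC than in control, beside 14.4% of all genes. Their summed normalized reads, over all 9, were 1802 in control, 1566 with AD-MSC and 3160 with UC-MSC. The largest differences were those of *Ccr2*, *Fcgr3*, *Mrc1* and *Cd68*, at 1.85, 1.66, 1.28 and 1.26. *Emr1* differed from control by 0.25 in UC-MSC, and *Cd14* was lower, by -0.43. The 9 neutrophil markers summed to 49.3, 39.5 and 147, and *Elane* was at the floor of the table in every group. Of the 4 with enough reads for the comparison, *Csf3r* stood at 15.1 for control against 46.5 for UC-MSC, and *Ltf* at 11.4 against 39.8. *Cxcr2* and *S100a9* passed the minimum only through their UC-MSC values. The remaining neutrophil markers had too few reads and did not share 1 direction. In UC-MSC *Mpo* and *Ngp* were lower than control, by -0.57 and -0.40. *Camp* was near level, at 0.02, and *S100a8* was higher, by 1.67. B cell markers summed to 231 in control, 27.3 with AD-MSC and 101 with UC-MSC. T cell markers summed to 131, 94.9 and 124, and no marker of either list was at the floor. The T cell sum of UC-MSC leaned on *Cd4*, at 77.3 against 47.2 in control. Of the 3 T cell markers compared for UC-MSC, *Cd4* differed from control by 0.71, *Lck* by -0.88 and *Cd2* by -0.65. *Cd3g*, *Cd3d*, *Cd3e* and *Cd5* were also lower and *Cd8a* higher, with too few reads for that comparison. The part of these cell types in the leukocyte subunits was not tested.

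*Itgam* and *Itgax* are neighbours on the plus strand of chromosome 7, from 128062640 to 128128160 and from 128129547 to 128150656, followed by *Itgad*. Their promoters are shown because these neighbouring alpha subunit genes were both higher in UC-MSC. The RefSeq promoter windows of build GRCm38.p6 ran from 250 bases before to 50 after each start. Only the 250 bases before the start were searched, on both strands, and the counts of matches refer to these bases. The letters were GAGGAA, found within known sites of the myeloid factor PU.1, and TGANTCA, those of AP-1 sites. TGANTCA was added after the values were seen. The runs shown lie on the plus strand before the start, at chr7:128062390-128062639 and chr7:128129300-128129546, and capitals mark the matches, which do not overlap.
Itgam: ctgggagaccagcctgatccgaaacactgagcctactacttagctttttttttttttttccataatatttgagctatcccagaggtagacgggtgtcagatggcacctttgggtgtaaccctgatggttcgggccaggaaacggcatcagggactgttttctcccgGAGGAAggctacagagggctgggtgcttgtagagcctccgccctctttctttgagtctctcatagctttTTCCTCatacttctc
Itgax: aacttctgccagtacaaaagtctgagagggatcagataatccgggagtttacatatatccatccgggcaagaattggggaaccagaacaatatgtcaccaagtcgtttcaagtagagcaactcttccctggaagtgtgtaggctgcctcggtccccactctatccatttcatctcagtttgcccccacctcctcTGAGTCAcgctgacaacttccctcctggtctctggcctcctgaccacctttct

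The *Itgam* promoter held GAGGAA starting 84 bases before the start and its reverse complement 15 bases before. Before the start, the *Itgax* window held no GAGGAA and 1 TGANTCA, 56 bases from the RefSeq start. That start lies a few bases after the gene start of the table where the printed run ends. Of 37 members, 23 had a window, 26 windows in all. GAGGAA lay before the start in 13 of these, beside 23.3% of all 32851 windows. TGANTCA was in 1 of the 26 member windows, beside 6.75% of all. GAGGAA was not particular to the myeloid genes, since the windows of *Itga5*, *Lamb1* and *Lama5* held it too. Those of the leukocyte subunits *Itga4* and *Itgb7* did not hold it before the start. These matches are a description of the letters and not of binding.

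Stromal integrin subunits were all higher in UC-MSC than in control, 7 of 7 beside 48.3% of all genes, with a median of 0.53. Past 1.5-fold lay 3, beside 14.4% of all genes. *Itga10* passed the minimum of reads only through its UC-MSC value. *Itga5*, the alpha subunit of the fibronectin receptor, had 806.7 normalized reads in control, 763 with AD-MSC and 1511 with UC-MSC, 1.87-fold higher in UC-MSC with a smallest counting error of 0.04 on the log2 scale. *Itga11*, a collagen receptor subunit of fibroblasts, had 31.3, 42.0 and 55.1, and *Itga1*, a collagen receptor subunit of smooth muscle and other cells, had 748.8, 906 and 1165. *Itga5* put UC-MSC alone above control, whereas for *Itga11* and *Itga1* AD-MSC lay between the other groups. The *Itga1* locus also holds *Pelo* on the same strand, which had 73.5, 62.8 and 73.9 normalized reads.

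The other 4 stromal subunits stayed under 1.5-fold. *Itga7*, the laminin receptor subunit of muscle, had 159 normalized reads in control, 225 with AD-MSC and 229 with UC-MSC, and differed from control by 0.50 and 0.53. Its locus also holds *Mettl7b* on the other strand, which had more normalized reads in each group, 371, 761 and 408. The part of *Mettl7b* reads in the *Itga7* values was not tested. *Itga8* and *Itga9* differed by 0.35 and 0.37 in UC-MSC and by -0.15 and 0.06 in AD-MSC. *Itga10*, a collagen receptor subunit known from cartilage, had 9.02, 7.12 and 11.01 normalized reads, and its counting intervals included 0.

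The greatest difference of any member was that of *Itgb8*, whose product pairs with alpha-V to activate latent TGF-beta. *Itgb8* (ENSMUSG00000025321, minus strand of chromosome 12, 119158022 to 119238802) had 16.7 normalized reads in control, 23.3 with AD-MSC and 60.1 with UC-MSC. UC-MSC was 3.61-fold higher than control, with a log2 difference of 1.85, a smallest counting error of 0.23 and rank 90 among 15026 genes. It was 2.57-fold higher than AD-MSC. Against this low level, a pseudocount of 10 brought the log2 difference of UC-MSC from control to 1.39.

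*Itgav*, the alpha-V partner of beta-3, beta-5, beta-6 and beta-8, had 832 normalized reads in control, 1019 with AD-MSC and 1492 with UC-MSC, a 1.79-fold difference between UC-MSC and control. *Itgb3*, carried by endothelium, platelets and macrophages, had 214, 262 and 422, and UC-MSC was 1.97-fold higher than control. *Itgb5* had 408, 394 and 502, with a difference of 0.30 in UC-MSC. Of the 4 beta partners of alpha-V other than beta-1, 3 were thus past 1.5-fold in UC-MSC, beside 14.4% of all genes, and *Itgb5* was not. *Itga2b*, the platelet partner of beta-3, had 12.5, 11.5 and 12.4 normalized reads. Of the 6 platelet markers 2 had enough reads, and they differed from each other. *Pf4* had 27.1 normalized reads in control, 25.3 with AD-MSC and 50.6 with UC-MSC, and *Gp1bb* 48.3, 30.4 and 50.7. *Gp9* was at the floor of the table in control and AD-MSC, and *Ppbp* in AD-MSC. *Itgb1* had 3324 normalized reads in control, 3713 with AD-MSC and 5201 with UC-MSC, 1.56-fold higher in UC-MSC.

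The other genes of the pathway were read from 4 lists. Integrin adaptors link the tails of integrins to actin and turn them on. In UC-MSC 4 of 23 were at least 1.5-fold higher and 0 lower, beside 14.4% and 9.88% of all genes. The share past 1.5-fold higher is near that of all genes and is no result about the list. Of the 23, 20 were higher than control by any amount, beside 48.3% of all genes. Their median was 0.35, beside -0.02 over all genes. The 4 past 1.5-fold were *Parvb* at 0.97, *Fermt2*, kindlin-2, at 0.71, *Zyx* at 0.65 and *Flna*, filamin A, at 0.64 on the log2 scale. The talin gene *Tln1* differed by 0.35. In AD-MSC 1 of 23 was past 1.5-fold lower, beside 6.62% of all genes, and 0 higher, beside 6.57%. These counts too are no result about the list. The lower gene was *Fermt3*, the kindlin of blood cells, with 62.1 normalized reads in control, 40.8 with AD-MSC and 72.4 with UC-MSC. The order of groups was the same as for *Itgal*.

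Counter-receptors of leukocyte integrins had 3 of 9 at least 1.5-fold higher and 0 lower in UC-MSC, beside 14.4% and 9.88% of all genes. *Vcam1*, the ligand of alpha-4 with beta-1, had 115 normalized reads in control, 87.9 with AD-MSC and 208 with UC-MSC. *Jam3* and *Thy1* differed by 0.76 and 0.99 in UC-MSC, and *Thy1* is also among the fibroblast markers. *Icam1*, the ligand of LFA-1, had 103, 85.9 and 131, and *Madcam1*, the vessel ligand of alpha-4 with beta-7, had 29.2, 30.9 and 34.8. *Icam1* and *Madcam1* thus stayed under 1.5-fold in UC-MSC. In AD-MSC 1 of the 9 was past 1.5-fold lower, beside 6.62% of all genes, *C3*, whose fragment is a ligand of alpha-M with beta-2, at -0.76.

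Matrix ligands other than laminins had 3 of 8 at least 1.5-fold higher in UC-MSC and 0 lower, beside 14.4% and 9.88% of all genes. *Fn1*, fibronectin, had 6763 normalized reads in control, 7052 with AD-MSC and 14586 with UC-MSC, and stood in the same order as its receptor gene *Itga5* for UC-MSC against the other groups. *Tnc* differed by 1.37 and *Thbs1* by 0.68 in UC-MSC. In AD-MSC 1 was past 1.5-fold higher, *Npnt*, the nephronectin ligand of alpha-8, at 0.91, and 1 lower, *Mfge8*, a ligand of alpha-V integrins, at -0.77, beside 6.57% and 6.62% of all genes.

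Partners of laminins in the basement membrane and the hemidesmosome had 7 of 14 at least 1.5-fold higher in UC-MSC and 0 lower, beside 14.4% and 9.88% of all genes, with a median of 0.61. *Col17a1*, 1 of the 7, passed the minimum of reads only through its UC-MSC value. The collagen genes *Col18a1*, *Col4a2* and *Col4a1* differed by 1.20, 1.19 and 1.09. *Nid1*, which ties laminin to collagen IV, had 756 normalized reads in control, 832 with AD-MSC and 1424 with UC-MSC. *Plec*, the hemidesmosome linker plectin, differed by 0.65, and *Col17a1*, a transmembrane collagen of hemidesmosomes, had 7.76, 6.90 and 16.2 normalized reads. *Dag1* and *Cd151*, which serve laminin binding at the cell surface, each differed by 0.10. In AD-MSC 1 of 13 was past 1.5-fold lower, beside 6.62% of all genes, and 0 higher, beside 6.57%. The share that was lower is near that of all genes and is no result about the list. The gene was *Col7a1*, the anchoring fibril collagen, at -0.82. It had 15.3 normalized reads in control against 8.65 with AD-MSC, so that it passed the minimum only through control.

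**Figure D4:**
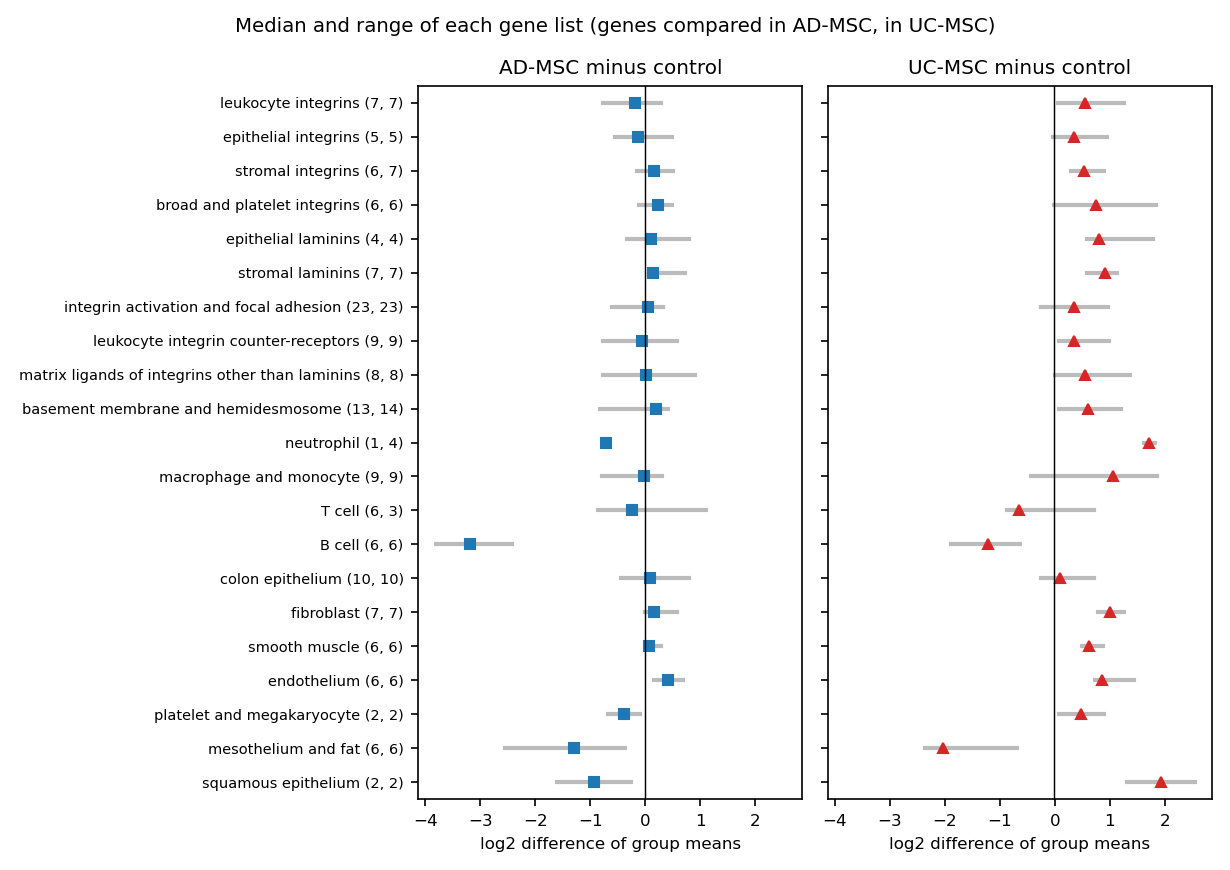
Points are the median log2 difference from control of each list, for AD-MSC (left) and UC-MSC (right), grey bars run from the lowest to the highest gene, and the black line is the median of all genes compared. Numbers beside each name count the genes compared for AD-MSC and for UC-MSC. The 6 classes of members lie between -0.19 and 0.23 in AD-MSC and between 0.35 and 0.91 in UC-MSC, where fibroblast markers lie at 1.01 and colon epithelium markers at 0.10.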

How the data were processed

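Libraries of total RNA from mouse colon (9 in all) were sequenced as single-end reads and mapped by the authors to mouse GRCm38/mm10. Gene values were made in Strand NGS, and the submitters' processing notes also name bcl2fastq 1.8.4 and DESeq. The libraries were made with a stranded total RNA kit, but no aligner or strand setting for counting is given in the sources used here. Of the 37 members, 16 overlap another gene of the table, 5 of them on the same strand. The deposited table gave, per group, the authors' signal of raw reads, a geometric mean over libraries with reads, and the authors' mean of log2 normalized reads, with values under 1 set to 1. These definitions rest on the values themselves. The log2 of the raw signal differed from the deposited log2 value by 1 constant per group in genes above 50 raw reads, within 0.002, for at least 99.8% of genes, and genes that kept it were taken to have reads in every library.

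Differences of log2 group means were computed over all genes, with a smallest counting error from the raw reads (Python 3.11.15, pandas 2.3.3, numpy 2.4.6), and the steps were tested on simulated data. Exon lengths came from GENCODE M21. Members at least 1.5-fold apart in any comparison were given in full, and up to 4 genes of each pathway list were named by size. A few others were named as partners of members after their values were seen. Genes of the cell type marker lists were not all named by size. The values of 1 member are not reported here, although it is in the counts and medians. Members and lists were chosen with earlier results of these data known. Per the study, the 3 libraries of a group came from 3 mice.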

Additional observations from a re-analysis of the deposited data

How the results depend on the processing

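No paired analysis was possible because each column is a group mean, and for the same reason leaving out replicates, a replicate block and count models were not run. No member past 1.5-fold took the opposite sign under the scalings, pseudocount and minimum means tried. Scaling the groups to equal totals over all genes moved 32 of 106 single differences by more than their 95% counting interval, the same over protein-coding genes moved 6, and a pseudocount of 10 moved 1. With equal totals over all genes, the UC-MSC medians against control became 0.50 for all members, 0.22 for epithelial integrins, 0.61 for broad and platelet integrins, 0.67 for epithelial laminins and 0.77 for stromal laminins. Against AD-MSC they became 0.40 for epithelial integrins and 0.65 for epithelial laminins. In AD-MSC against control, 1 member stayed past 1.5-fold higher with a pseudocount of 10, and with a minimum mean of 50 there were 1 higher and 0 lower and the stromal integrin median was 0.057. With that minimum the leukocyte median in UC-MSC was 0.93, because *Itgae* and *Itgb7* dropped out. With no minimum, 1 member, *Itgad*, was past 1.5-fold lower in UC-MSC than in AD-MSC. Depth limits the low members, with a smallest counting error of 0.39 for *Itga10*, 0.36 for *Itga2b* and 0.31 for *Lamc3* in UC-MSC against control. The variation between mice, which these errors leave out, is unknown.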
